A study of Macaca mulatta with 2 samples.

Results

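CXCL13 and IL21 are 2 of the 35432 genes counted in the circulating CD4+CD8+ double-positive (DP) T cells of 1 healthy rhesus monkey aged 6 years. The blood cells were untreated, CD4+ cells were taken from them with releasable magnetic beads, and the CD8+ cells among these were then taken with a second set of beads. The data are an RNA library and a library of DNA-tagged antibodies against CD4 and CD8, both from the same cells of the same animal, so there are no biological replicates, no groups to compare and no test. Both genes were selected on earlier results of these same cells, among them the IL21 counts that had helped to name a class of follicular helper-like cells, so their levels are a description. The cells described here are the 7311 cells with at least 1 CD3E transcript count (CD3E+ cells) among 7601 cells that passed the filters on gene number and mitochondrial RNA. CD3E encodes a chain of the CD3 complex that accompanies the T cell receptor, and these cells make up 96.2% of the cells kept. The 3 T cell markers CD3E, CD3D and CD3G had a summed 2695 CPM (UMIs scaled to the same library total for every set of cells). CD3E, by which the cells were chosen, gave 1404 CPM of this, so the sum is no independent check of identity. B cell markers summed to 81.3 CPM, NK cell markers to 72.1 and monocyte and dendritic cell markers to 10.5.

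CXCL13 is a secreted chemokine that draws CXCR5-bearing B cells and helper T cells into lymphoid follicles. IL21 is a cytokine of helper T cells that acts on B cells and cytotoxic lymphocytes through a receptor of IL21R and the common gamma chain IL2RG, with JAK1, JAK3 and STAT3 downstream. Both are known as products of follicular helper T (Tfh) cells, which carry CXCR5 and PD-1 (encoded by PDCD1), while the naive homing receptor CCR7, the inhibitory receptor CTLA4, the regulatory factor FOXP3 and the cytotoxic protease granzyme B (GZMB) mark other or overlapping T cell states.

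In the RefSeq annotation of Mmul_10, CXCL13 (ENSMMUG00000023186) lies on the minus strand of chromosome 5, from 56100955 to 56105858, with 4 exons. That model holds coding sequence only. IL21 (ENSMMUG00000049383) lies on the same strand of the same chromosome, from 120437169 to 120445850, with 5 exons. Exon 2 of CXCL13 (chr5:56103875-56104007) is shown because it encodes the feature that places the protein in its chemokine family, and in it capitals mark the codons of residues 33 to 35, the cysteine, single residue and cysteine after which the CXC chemokine family is named. It is read from the Mmul_10 genome, 5′ to 3′ on the coding strand. The CXCL13 exons differed from the RefSeq transcript at 2 bases over the whole model, and the IL21 exons at 0.
CXCL13 exon 2: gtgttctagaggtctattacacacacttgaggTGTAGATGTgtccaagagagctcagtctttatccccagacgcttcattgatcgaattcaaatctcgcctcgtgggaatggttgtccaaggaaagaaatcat

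CXCL13 was held by few cells, and in large amounts by some of them. A count here is a unique molecular identifier (UMI), which stands for 1 captured RNA molecule. CXCL13 had 283 UMIs in 73 of 7311 CD3E+ cells, or 0.998% (95% exact interval 0.783 to 1.25), and 9.40 CPM (8.33 to 10.6). All intervals cover counting error only, and those on summed UMIs treat each UMI as independent although 1 cell can hold many. The cells had a median of 3656 UMIs, and with each cell thinned to 2000 UMIs the share was 0.707% of 6935 cells. As a background, 86 cells were taken that held 3 or more B lineage UMIs and lacked CD3 transcripts (B gene cells, median 4137.5 UMIs). In them CXCL13 had 0 UMIs, which allows a share of up to 3.49%, taken as 3 cells of the 86 (the exact upper bound is 4.20%). In the 290 kept cells without a CD3E UMI it was held by 3, or 1.03% (0.214 to 2.99), an interval that holds the share of the CD3E+ cells. In the 2770 CD3E+ cells with at least 3 GZMB UMIs (median 3303 UMIs) the share was 0.289%, and 0.188% after thinning.

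Of the 73 CXCL13+ cells, 26 held 1 UMI, 33 held 2 to 4 and 14 held 5 or more. These 14 cells held 160 UMIs, or 56.5% of all CXCL13 UMIs. The highest cell held 37, the next 26, 22 and 13, and the 4 together held 34.6%. The median depth of the 3 classes was 3192, 3146 and 3382.5 UMIs, and that of all CXCL13+ cells was 3172, below the 3661.5 of the other CD3E+ cells. CXCL13 had 3.88 UMIs per positive cell, against a median of 1.02 over the 776 genes found in a like number of cells (55 to 91), and 4 of these genes were above it. The 4 were TRBV14 and TRBV15, which are T cell receptor segments, JCHAIN, which links antibody chains, and the unnamed ENSMMUG00000043894.

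IL21 was rarer and was never seen above 1 UMI in a cell. It had 18 UMIs in 18 CD3E+ cells, or 0.246% (0.146 to 0.389) and 0.598 CPM (0.354 to 0.945). The IL21+ cells were deep, with a median of 4886 UMIs, and thinning to 2000 UMIs left a share of 0.115%. IL21 had 0 UMIs in the B gene cells, which allows the same 3.49%, and the share was 0.0722% in the GZMB-high cells. With 1 UMI per cell, a cell without an IL21 UMI cannot be told from a cell that lacks the transcript at this depth.

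CXCL13 was also held by 4 of the 18 IL21+ cells, or 22.2% (6.41 to 47.6), against 0.946% (0.737 to 1.20) of the other CD3E+ cells. The 4 cells held 37, 5, 2 and 1 CXCL13 UMIs, 45 in all and 15.9% of the total. The cell with most CXCL13 in the data was thus also an IL21+ cell. The CXCL13 level was 474 CPM in IL21+ cells and 7.93 in the others, and 88.8 in IL21+ cells without that 1 cell. Its 37 CXCL13 UMIs stood beside 0 UMIs of each of CXCR5, PDCD1, CCR7, CTLA4, FOXP3 and GZMB, in a cell of 4905 UMIs. These 6 genes are called gate genes from here on, and a cell with at least 1 UMI of one is written as positive for it. The other 3 cells with both genes held PDCD1, CTLA4 or CCR7 but no CXCR5, FOXP3 or GZMB UMI.

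**Figure D1:**
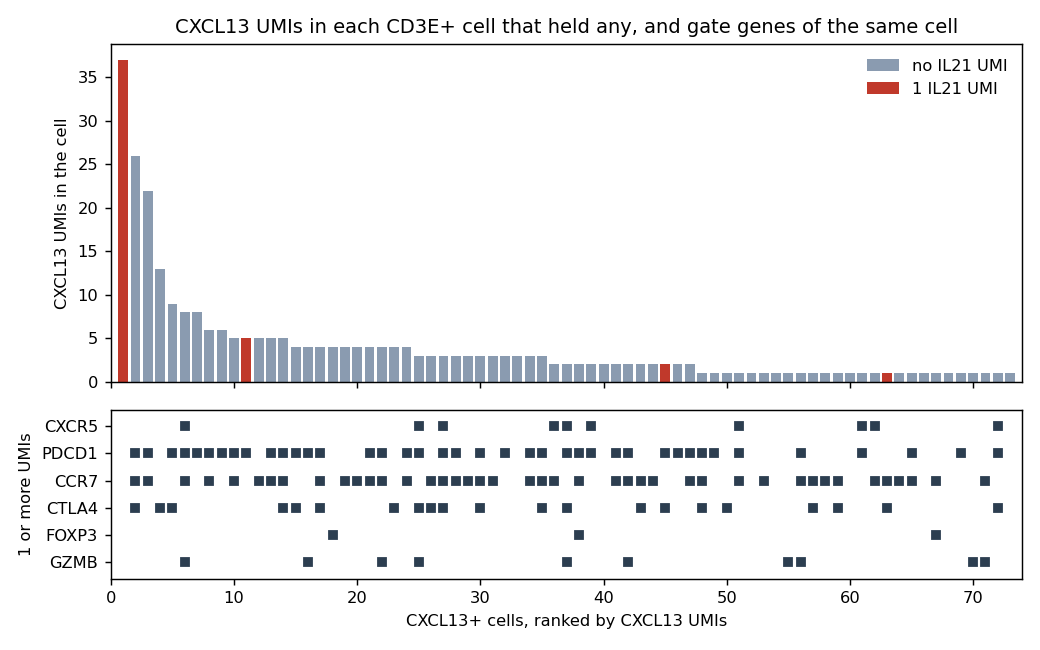
CXCL13 UMIs in each of the 73 CXCL13+ CD3E+ cells, ranked (upper panel, linear axis), with cells that also held an IL21 UMI in red, and squares where the same cell held at least 1 UMI of a gate gene (lower panel). The counts fall from 37 to 1, the 4 cells with both genes lie across that range, and PDCD1 and CCR7 squares are common while FOXP3 squares are few.

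CXCR5, the receptor for CXCL13, was seen in few of the cells that held the ligand. Of the 73 CXCL13+ cells, 10 held a CXCR5 UMI and 63 did not. CXCL13 was held by 3.33% (1.61 to 6.04) of the 300 CXCR5+ cells and by 0.899% (0.691 to 1.15) of the 7011 others, a log2 ratio of shares of 1.89 (0.76 to 2.86). By summed UMIs the ratio was 0.48 (-0.19 to 1.09), and 1 of the 14 cells with 5 or more CXCL13 UMIs held CXCR5. Without the 1 cell with most CXCL13 UMIs, which held no CXCR5 UMI, it was 0.70 (0.03 to 1.31). Without cells with a UMI of a B cell gene it was 1.24 (0.55 to 1.86). Whether that interval spans 0 thus depends on the cells included. CXCR5+ cells were deeper (median 5017.5 against 3622 UMIs), and with thinning the shares were 1.73% and 0.662%. With the gate at 2 or more CXCR5 UMIs the ratio of summed UMIs was -2.35 (-7.66 to 0.14). That value rests on 1 CXCL13 UMI in the gate, and its interval spans 0. Read with PDCD1, the usual pair of Tfh surface genes, CXCL13 was held by 8 of 87 CXCR5+PDCD1+ cells, or 9.20% (4.05 to 17.3), at 32.1 CPM and a median depth of 6124 UMIs. It was held by 1.42% (0.976 to 2.0) of the 2248 CXCR5-PDCD1+ cells. Those 8 cells held 21 of the 283 CXCL13 UMIs, and the CXCR5-PDCD1+ cells held 153. Most of the transcript thus lay outside the cells in which UMIs of both genes were seen. CXCR5 was at 13.3 CPM, with 1.34 UMIs per positive cell. A cell without a CXCR5 UMI therefore cannot be told from a cell that lacks the transcript at this depth. For IL21, 2 of the 87 cells were positive. In all, 3 of 18 IL21+ cells held CXCR5, and the log2 ratio of shares was 2.22 (-0.21 to 4.05).

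CXCL13 went with PDCD1, the gene of the inhibitory receptor PD-1. It was held by 1.71% (1.23 to 2.33) of PDCD1+ cells and 0.663% (0.457 to 0.930) of the others, and the level was 17.7 against 5.37 CPM, a log2 ratio of 1.72 (1.37 to 2.08). The thinned shares were 1.30% and 0.425%. Without the top cell that ratio was 2.32. The PDCD1 level was also read by the CXCL13 count. It was 128 CPM in cells without CXCL13, 94.1 (45.1 to 173) in cells with 1 UMI, 307 (219 to 418) with 2 to 4 and 411 (277 to 586) with 5 or more. The share of cells with a PDCD1 UMI was 31.7%, 30.8%, 63.6% and 78.6% in the same order. The interval of cells with 1 CXCL13 UMI thus overlapped that of cells with none in PDCD1, and those of the other classes lay above it. For IL21, 10 of 18 cells held PDCD1, with a log2 ratio of shares of 1.41 (-0.08 to 2.96).

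CCR7, which guides naive and central memory cells to lymph nodes, was held by 42 of the 73 CXCL13+ cells. CXCL13 was in 1.94% (1.40 to 2.62) of CCR7+ cells and 0.602% (0.410 to 0.854) of the others, with a log2 ratio of summed UMIs of 1.19 (0.84 to 1.54). The thinned shares were 1.34% and 0.433%. With the gate at 2 or more CCR7 UMIs the ratio was 0.27 (-0.16 to 0.67). Where CCR7 and PDCD1 were read together, the cells with both stood out. CXCL13 was held by 24 of 350 CCR7+PDCD1+ cells, or 6.86% (4.44 to 10.0), at 55.6 CPM. The shares were 0.993% of 1813 CCR7+PDCD1- cells, 0.806% of 1985 CCR7-PDCD1+ cells and 0.474% of 3163 cells with neither. Cells with UMIs of both gates were deeper, at a median of 5164.5 UMIs. IL21 was in 5 of the 350 cells with both. Of the 18 IL21+ cells 10 held CCR7, which was in 29.6% of all CD3E+ cells. The IL21 log2 ratio was 1.19 (-0.30 to 2.74) by summed UMIs and 1.57 (0.08 to 3.12) by shares of cells. The thinned IL21 shares were 0.144% of CCR7+ cells and 0.103% of the others.

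CTLA4, an inhibitory receptor of activated and regulatory T cells, gave the highest of the 6 ratios for CXCL13 with the gate at 1 UMI. For IL21 it was the highest of the gates that gave a ratio, which FOXP3 did not. Its IL21 interval overlapped those of CXCR5, PDCD1 and CCR7. Its CXCL13 interval by summed UMIs (2.05 to 2.79) overlapped that of PDCD1 (1.37 to 2.08). By shares of cells its CXCL13 interval (1.65 to 3.22) overlapped those of CXCR5, PDCD1, CCR7 and FOXP3. A rank of CTLA4 among these gates is thus not shown for either gene. CXCL13 was in 4.20% (2.62 to 6.35) of the 500 CTLA4+ cells and 0.763% (0.571 to 1.0) of the others, a log2 ratio of summed UMIs of 2.42 (2.05 to 2.79). The thinned shares were 3.28% and 0.512%. With the gate at 2 or more CTLA4 UMIs the ratio was -0.15 (-1.78 to 1.09), an interval that spans 0. Few CXCL13+ cells passed that gate, each with 1 or 2 CXCL13 UMIs, so this ratio rests on few UMIs. With 2 or more PDCD1 UMIs the ratio was 2.03 (1.67 to 2.38). Among CTLA4+PDCD1+ cells, 13 of 151 held CXCL13 (8.61%, 4.66 to 14.3), at a median depth of 4330 UMIs. IL21 was in 6 of the 500 CTLA4+ cells and 12 of the 6811 others, a log2 ratio of summed UMIs of 2.48 (0.78 to 4.0).

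FOXP3, the defining factor of regulatory T cells, was rare in all cells. It was in 4.11% (0.856 to 11.5) of CXCL13+ cells and 2.22% of all CD3E+ cells. CXCL13 was held by 3 of 162 FOXP3+ cells (1.85%, 0.384 to 5.32) and 0.979% of the others, and the log2 ratio of summed UMIs was -0.12 (-1.44 to 0.95). All 21 CTLA4+ cells with CXCL13 were without a FOXP3 UMI, among 457 CTLA4+FOXP3- cells, and 0 of the 43 CTLA4+FOXP3+ cells held it, which allows a share of up to 6.98%. IL21 was in 0 of the 162 FOXP3+ cells, which allows up to 1.85%.

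GZMB, which marks cytotoxic cells, was low in the positive cells. CXCL13 was in 0.306% (0.147 to 0.561) of the 3273 GZMB+ cells and 1.56% (1.20 to 1.99) of the 4038 GZMB- cells, and the log2 ratio of summed UMIs was -2.77 (-3.40 to -2.20). The thinned shares were 0.226% and 1.09%. Splitting by PDCD1 as well, CXCL13 was held by 5.20% (3.60 to 7.22) of 635 GZMB-PDCD1+ cells and by 0.412% (0.166 to 0.847) of 1700 GZMB+PDCD1+ cells, with medians of 3879 and 3374.5 UMIs. Most PDCD1+ cells were thus GZMB+ cells that held little CXCL13. For IL21, 3 of 18 cells held GZMB, with a log2 ratio of summed UMIs of -1.85 (-4.28 to -0.03).

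**Figure D2:**
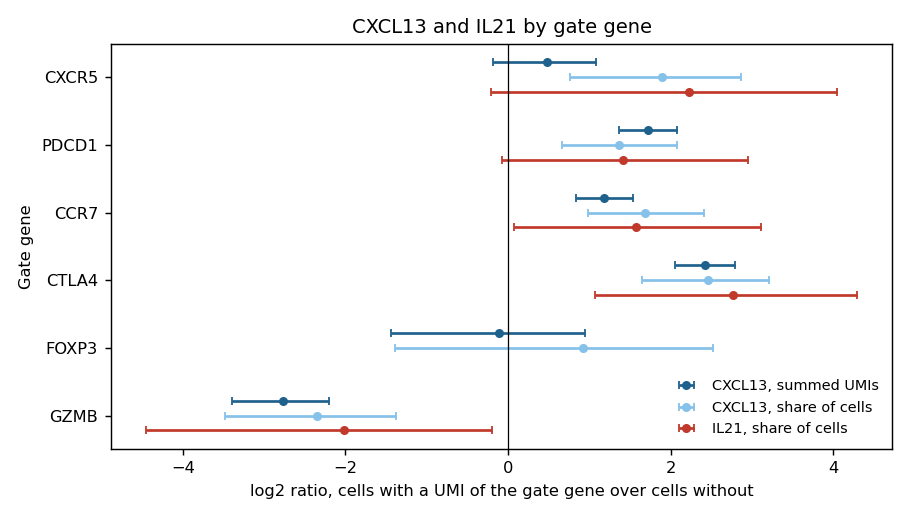
Log2 ratio of CXCL13 or IL21 between CD3E+ cells with and without a UMI of each gate gene, with 95% intervals from the split of UMIs or cells. CXCL13 ratios are above 0 for PDCD1, CCR7 and CTLA4 and below 0 for GZMB, those for FOXP3 span 0, and those for CXCR5 differ between summed UMIs (0.48) and shares of cells (1.89). No IL21 ratio is drawn for FOXP3, where the count is 0.

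Counted over the 6 gates, 9 of the 73 CXCL13+ cells held none of them, 22 held 1, 26 held 2, 12 held 3 and 4 held 4. Over all CD3E+ cells, 21.3% held none and 3.90% held 3, against 12.3% and 16.4% of CXCL13+ cells. No interval was taken for these shares, so a difference in the share with none is not shown. The count pools GZMB, which was lower in CXCL13+ cells, with gates such as PDCD1 that were higher. Of the IL21+ cells, 3 held none of the gates, 3 held 1, 8 held 2, 3 held 3 and 1 held 4.

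Both antibody tags were read against the B gene cells, taking as limit the 90th percentile of those cells (191 UMIs for CD4, 330.5 for CD8). The CD4 tag was above its limit in 72 of 73 CXCL13+ cells (98.6%, with an exact lower bound of 92.6) and in 93.9% of all CD3E+ cells. Its median was 464 UMIs in CXCL13+ cells, with values from 69 to 1531, and 386 in CXCL13- cells. The CD8 tag was above its limit in 37 of 73 (50.7%, 38.7 to 62.6) and in 51.7% of all CD3E+ cells, with medians of 339 and 342. CXCL13+ cells thus differed from the rest of the sort by less than the counting interval in the CD8 tag. Of all CD3E+ cells 49.1% were above both limits. The CD8 limit lay close to the median of all CD3E+ cells (342), so this share depends on the limit and is no count of DP cells. The cells had been sorted for both markers with beads, and the study reported high levels of both tags in every cluster. By both tags, 37 CXCL13+ cells were above both limits, 35 above CD4 alone, 0 above CD8 alone and 1 above neither. Of all CD3E+ cells, 44.7% were above CD4 alone, 2.54% above CD8 alone and 3.60% above neither. The exact interval of 0 of 73 reaches 4.93%, so a lower share above CD8 alone is not shown. All 18 IL21+ cells were above the CD4 limit and 10 were above the CD8 limit, with medians of 444.5 and 508 UMIs. In the RNA, 40 of 73 CXCL13+ cells held CD4 transcripts, 32 held CD8A and 4 held CD8B, or 54.8%, 43.8% and 5.48%, against 48.5%, 39.0% and 3.98% of CXCL13- cells.

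**Figure D3:**
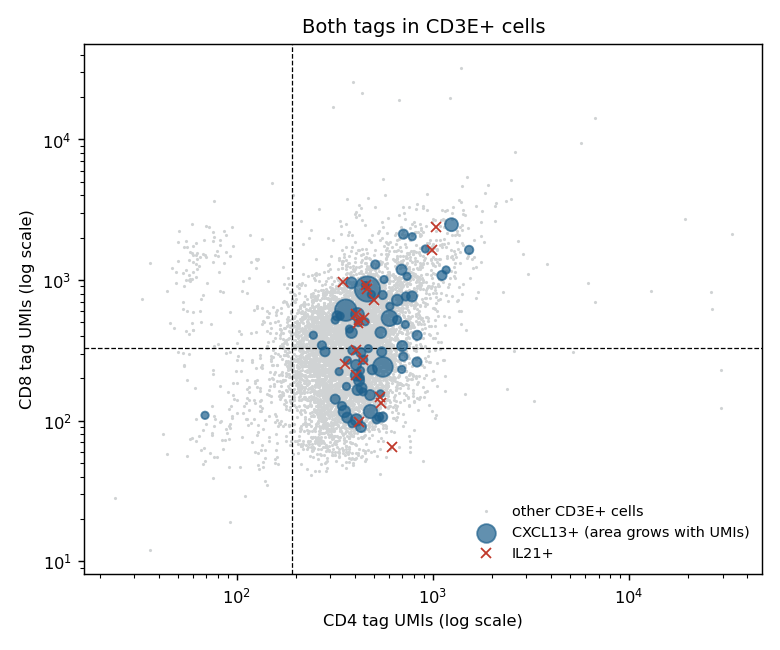
CD4 and CD8 tag UMIs of each CD3E+ cell on log scales, with CXCL13+ cells in blue (area grows with CXCL13 UMIs), IL21+ cells as red crosses and limits from B gene cells as dashed lines (191 and 330.5 UMIs). All but 1 of the CXCL13+ cells and all IL21+ cells lie right of the CD4 limit, on both sides of the CD8 limit.

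The genes that best told CXCL13+ cells from the other CD3E+ cells were then read off. Ratios are log2 of CPM plus 10, and a gene was counted as higher or lower at a difference of 1 or more, over the 6665 genes with at least 10 CPM in all CD3E+ cells. Of these, 1.64% were higher and 3.18% were lower in CXCL13+ cells. These shares are the background for the counts that follow.

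Among Tfh genes, the most marked were those with low levels elsewhere. CD200, an inhibitory surface ligand of Tfh cells, was at 71.0 CPM (44.5 to 108) in CXCL13+ cells and 4.23 in the others, and in 17 of 73 cells. TOX2, a nuclear factor of Tfh cells, was at 61.3 (36.9 to 95.8) and 5.23. It was in 15 of the 73 CXCL13+ cells. BTLA, an inhibitory receptor of B and T cells, was at 29.1 (13.3 to 55.2) and 5.44. These 3 were below the level needed to be counted. Of the 12 listed genes that were counted, 3 were higher and 0 lower: ICOS (log2 1.11), a costimulatory receptor of Tfh cells, TIGIT (1.74), an inhibitory receptor, and TCF7 (1.16), a factor of naive and follicular cells. The list's median was 0.72, against 0.01 over all counted genes. The factors MAF (0.70) and TOX (0.58), and CD40LG (0.73), the ligand that helps B cells, were within 1. So were CXCR5 (0.98), PDCD1 (0.96), SLAMF6 (0.55) and CD84 (0.29). SH2D1A (-0.09) and CXCR4 (-0.43) went the other way, the latter at 239 CPM (188 to 300) against 325. BCL6, the master factor of Tfh cells, had 0 UMIs in CXCL13+ cells and 63 in the others (2.11 CPM), a level below the 9.69 CPM that 0 UMIs allow here. No ratio was taken for it.

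Among genes of checkpoint and costimulation, 6 of 9 counted genes were higher and 0 were lower, with a median of 1.11. They were TIGIT, LAG3 (1.71), CTLA4 (1.68), TNFRSF4 (1.34), which encodes OX40, ICOS and CD28 (1.09). Several of these genes stand in the Tfh list too. LAG3 was at 71.0 CPM (44.5 to 108) in CXCL13+ cells and 14.8 in the others. Of the 5 naive genes counted, 3 were higher, namely CD7 (1.22), TCF7 and LEF1 (1.11), a partner of TCF7 in naive cells, and CCR7 was at 0.79. Of the 2 regulatory genes counted, CTLA4 was higher, and IL2RA, at 1 UMI in the 73 cells and 11.5 CPM elsewhere, was within 1. IKZF2 had 0 UMIs, but its 7.65 CPM elsewhere is below the 9.69 CPM that 0 UMIs allow here.

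The cytotoxic genes ran the other way, with 10 of 10 counted genes lower and a median of -2.12 against all other CD3E+ cells, and the comparison with cells that lack GZMB follows further on. GZMK, a protease of memory CD8 cells, was at 12.9 CPM (3.52 to 33.1) against 255. NKG7, a granule protein of killer cells, was at 187 (142 to 242) against 855, and GZMB itself at 252 against 1250. GZMB is a gate of the rule, and GZMB+ cells make up 44.8% of CD3E+ cells.

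Among receptor and signalling genes of both members, 1 of 10 counted genes was higher and 0 were lower. That gene was SOCS3, a feedback inhibitor induced by cytokine signalling, at 107 CPM (73.3 to 150) against 32.1 and in 26 of 73 cells. The receptor chain IL21R had 1 UMI in the 73 cells and was at 7.99 CPM in the others. Its log2 ratio without the added 10 was -1.31 (-6.62 to 1.19), so no difference is shown. IL2RG was at 439 (368 to 519) against 447. Among factors that act on the IL21 gene in helper T cells, NFATC1 was the 1 higher gene of 5 (1.20), and BATF was at 0.81. Of 14 helper cytokine genes, LTB, a lymphotoxin chain used in building lymphoid tissue, was at 2034 CPM (1878 to 2199) against 953 and in 71 of 73 cells. Only LTB and TGFB1 were counted. IL2, IL4, IL10, IFNG and TNF had 0 UMIs in the CXCL13+ cells, but were at 0.302 to 7.48 CPM elsewhere, again below the 9.69 CPM that 0 UMIs allow, so a difference was not detectable at this depth. IL17A, a cytokine of Th17 cells, had 4 UMIs in 3 of these cells, all with 5 or more CXCL13 UMIs, and 21 UMIs in the 7238 others. Of 9 activation genes, MKI67 was higher with 11 UMIs in 2 cells. MAMU-DRA, an MHC class II gene, and EGR1, an early response factor, were lower by this ratio. EGR1 had 1 UMI in the 73 cells and was in 4.08% of the others, so by cells it is not shown lower.

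By the rule for named genes, which asks for UMIs in the higher group and not for 10 CPM over all CD3E+ cells, the 12 highest were CHN1 (2.93), SGK1 (2.89), TCEA3 (2.82), GPX1 (2.81), IGFBP4 (2.77), CD200 (2.51), CTSL (2.44), OTUD5 (2.38), SESN1 (2.24), NCALD (2.22), CCR4 (2.13) and FABP5 (2.09). SGK1 is a salt- and glucocorticoid-responsive kinase of T cells, CCR4 a chemokine receptor of helper and regulatory cells, and GPX1 a glutathione peroxidase. CHN1, which encodes a Rac GTPase activator, was in 22 of 73 CXCL13+ cells (30.1%) and in 1.12% of the others, at 90.4 CPM (60.1 to 131) against 3.15. IGFBP4, a binding protein of insulin-like growth factors, was at 71.0 (44.5 to 108) against 1.91. At the other end stood GZMK, HBA, MAMU-DRB1 (-3.10) and HOPX (-2.98), and HBB and TRBV7-3, which had 0 UMIs. HBB and HBA are red blood cell genes. HBB was seen in 0.152% of the other CD3E+ cells, so 73 cells are too few to show it lower, and TRBV7-3, a T cell receptor segment, was seen in 4.24%. No fold is given for these 2. B cell markers summed to 29.1 CPM in CXCL13+ cells and 81.8 in the others, MS4A1 and CD79B were at 0 (1.37% and 2.14% of the other cells held them), and monocyte markers summed to 9.69 and 10.5.

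The same genes were read against the 602 CXCL13- cells with PDCD1 and without GZMB, a comparison chosen after the values had been seen. It uses the 73 cells on which the genes had been chosen as highest, so their values here are a description and no second support, and PDCD1 and GZMB were part of the choice of cells. TCEA3, a transcription elongation factor, was at 155 CPM against 12.9, a log2 ratio of 2.85 on the plus 10 scale. SGK1 was at 139 against 16.9 (2.47), IGFBP4 at 71.0 against 6.83 (2.27), CHN1 at 90.4 against 12.2 (2.18), TOX2 at 61.3 against 8.27 (1.97) and CD200 at 71.0 against 11.5 (1.91). As a background for the counts in this comparison, 78 of the 6665 counted genes were higher and 176 lower by 1 or more. Of the 6 checkpoint genes that were higher against all other cells, TNFRSF4 alone was past 1 here, at 71.0 against 27.7 CPM. TIGIT was at 0.90, LAG3 at 0.97, CTLA4 at 0.99, ICOS at 0.60 and CD28 at 0.53. TCF7 (0.74), NFATC1 (0.93), LTB (0.57) and MKI67 (0.46) were also within 1, and CD7 (1.22), LEF1 (1.28) and SOCS3 (1.16) were past it. Of the 9 counted cytotoxic genes other than GZMB, 5 were lower by 1 or more, namely GZMK (-4.38), GZMM (-2.13), GNLY (-1.80), CST7 (-1.47) and NKG7 (-1.06). CCL5 was at -0.99 and PRF1, which encodes perforin, at -0.20. CX3CR1, a chemokine receptor of cytotoxic cells, turned from -1.34 to 0.90, and ADGRG1 from -1.37 to 0.21. These turns rest on 6 CX3CR1 UMIs against 16 and on 1 ADGRG1 UMI against 4. The 2 sets were also not matched for GZMB, because 10 of the 73 CXCL13+ cells held it and none of the 602 did. A rise of cytotoxic genes in CXCL13+ cells is thus not shown. In the 290 CXCL13- cells with CXCR5, CHN1 was at 5.50 CPM and IGFBP4 at 1.1.

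**Figure D4:**
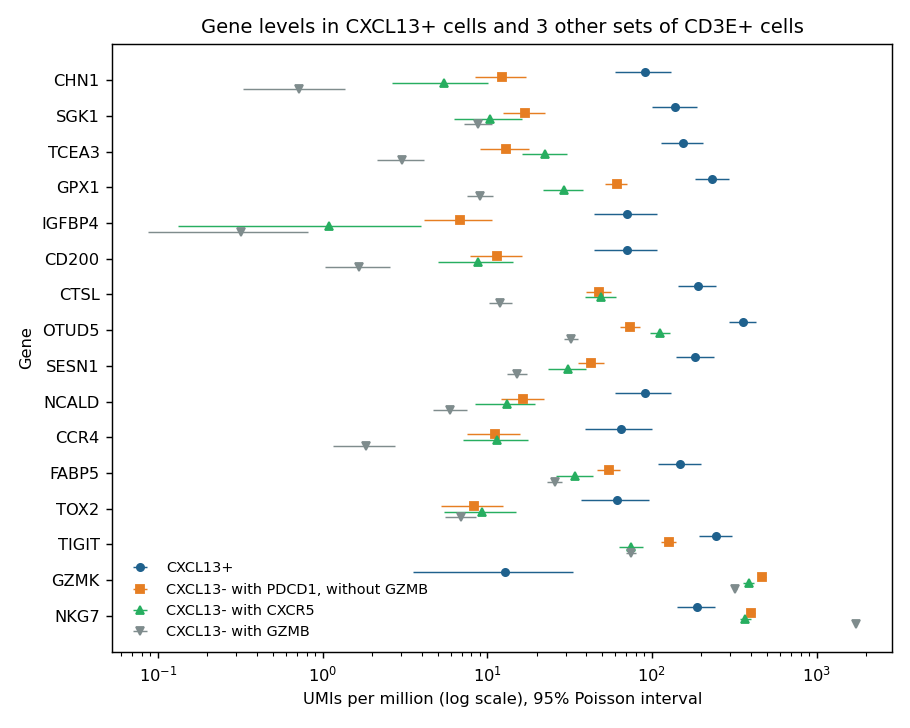
Levels (CPM, log scale, 95% Poisson intervals) of the 12 highest named genes and of TOX2, TIGIT, GZMK and NKG7 in CXCL13+ cells and in 3 sets of CXCL13- cells. The CXCL13+ cells lie right of all other sets for the first 14 genes and left for GZMK and NKG7.

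The same shares were read by the amount of CXCL13. CD200 was in 1.48% of cells without CXCL13 and in 23.1% (8.97 to 43.6), 15.2% (5.11 to 31.9) and 42.9% (17.7 to 71.1) of cells with 1, 2 to 4 and 5 or more UMIs. TOX2 was in 2.04%, and in 11.5% (2.45 to 30.2), 21.2% (8.98 to 38.9) and 35.7% (12.8 to 64.9). The intervals of the 3 positive classes overlapped for both genes, so no difference with the amount of CXCL13 is shown among positive cells. CXCR5 was in 4.01%, 15.4%, 15.2% and 7.14%, and GZMB in 45.1%, 15.4%, 15.2% and 7.14%. Cells with a single CXCL13 UMI were thus already set apart from the CXCL13- cells in CD200 and GZMB, where the intervals do not overlap.

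**Figure D5:**
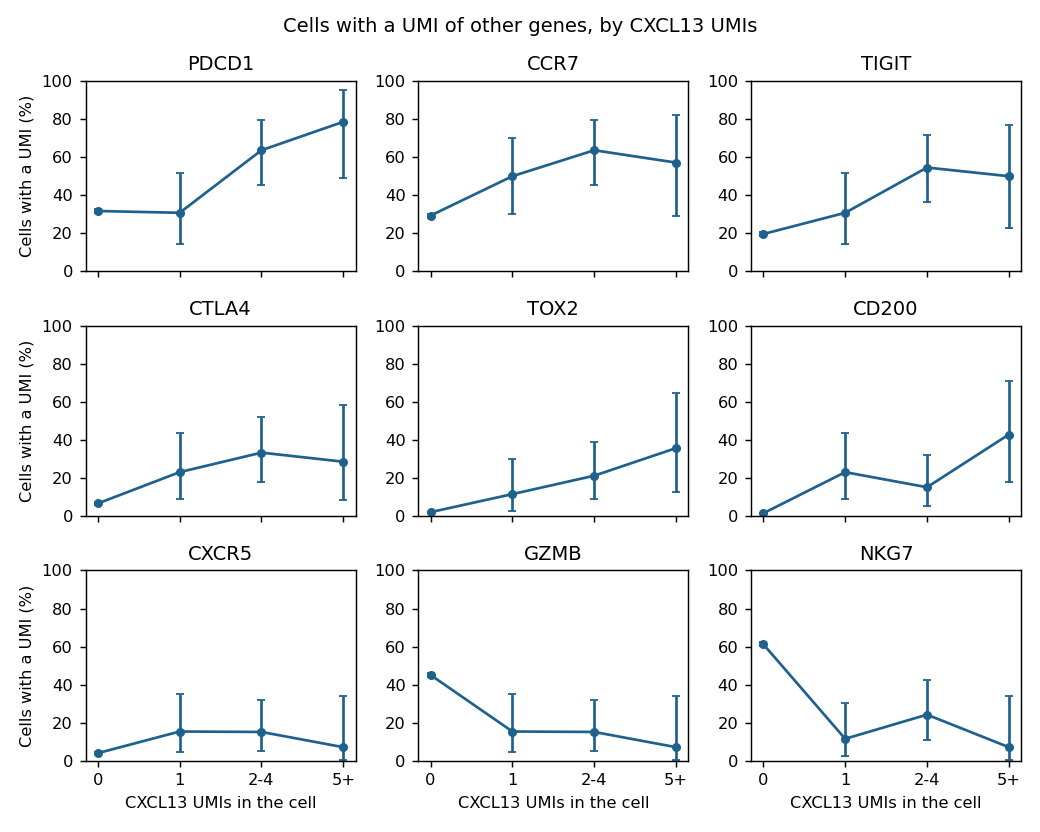
Share of CD3E+ cells with a UMI of each of 9 genes, in cells with 0 (7238 cells), 1 (26), 2 to 4 (33) and 5 or more (14) CXCL13 UMIs, with 95% exact intervals. PDCD1 is at 31.7% and 30.8% up to 1 UMI and at 78.6% at 5 or more, whereas GZMB and NKG7 are lower in all 3 positive classes.

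IL21+ cells, of which there were 18, gave a coarser view, and among the 6665 genes 5.79% were higher and 12.3% lower. Of 12 counted Tfh genes, 3 were higher and 0 lower, namely TIGIT (1.63), CXCR5 (1.17) with 4 UMIs in 3 cells, and TCF7 (1.02). The list median was 0.69, against 0.06 over all counted genes. Of 9 checkpoint genes, 2 were higher (TIGIT and CTLA4, the latter at 1.24), and of 10 counted cytotoxic genes 8 were lower and 0 higher, with a median of -2.19. ADGRG1, an adhesion receptor of killer cells, was 1 of the 8 but had 0 UMIs and a level elsewhere (24 CPM) under the 31.6 CPM that 0 UMIs allow here. Of 10 counted receptor and signalling genes, 2 were higher, among them SOCS3 (1.44), and 1 was lower. Of 5 counted factors that act on the IL21 gene, 0 were higher and 0 lower, with a median of -0.03. LTB (1.01) was the 1 higher gene of 2 counted helper cytokine genes. Of 9 activation genes, 2 were higher and 0 lower, among them CD38 (2.21), an ectoenzyme of activated lymphocytes. The 2 counted regulatory genes were higher, CTLA4 and IL2RA (1.98), the high-affinity interleukin-2 receptor chain. CD38 was in 7 of 18 cells, at 126 CPM (65.3 to 221) against 19.6. CD200, BCL6 and FOXP3 had 0 UMIs, but were at 4.93, 2.10 and 8.86 CPM elsewhere, below the 31.6 CPM that 0 UMIs allow. No difference is thus shown for them. The B cell markers CD79A (1.49) and CD79B (1.07) and the class II gene MAMU-DRA (1.37) were higher too, and 1 cell held 18 of the 19 B cell marker UMIs and 29 of the 35 MAMU-DRA UMIs. That cell held 1 CD38 and 1 IL2RA UMI.

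The 12 highest for IL21 were PTPN13 (3.06), CTSL (2.39), TCEA3 (2.23), CD38, OTUD5 (2.16), GPX1 (2.11), SESN1 (1.90), CHERP (1.88), CD55 (1.85), TRIB2 (1.80), PITHD1 (1.68) and TIGIT. PTPN13, a protein tyrosine phosphatase, was in 8 of 18 cells (44.4%) and 2.87% of the others. The lowest were HBA, HBB, CTSW, TYROBP and PLAC8, all with 0 UMIs, and GZMK (-3.68). Set at a floor of 3 UMIs, CTSW, TYROBP and PLAC8 were 3.32-fold, 3.13-fold and 2.90-fold lower. The exact intervals of their log2 ratios reached up to -1.43, -1.35 and -1.24. They were in 23.3%, 16.4% and 19.3% of the other cells, and 0 of 18 cells allows a share of up to 16.7%. By cells TYROBP is thus not shown lower, and PLAC8 is close to that limit. No fold is given for HBA and HBB, whose UMIs lay in 12% and 0.151% of the other cells. CTSL, a lysosomal protease, TCEA3, OTUD5, a deubiquitinase, GPX1 and SESN1, a stress-induced inhibitor of mTORC1, were among the highest genes for both members, and the groups share 4 cells and nearly all other cells. In the 14 IL21+ cells without CXCL13, CTSL was at 147 CPM (12 UMIs), GPX1 at 171 (14 UMIs) and TCEA3 at 61.2 (5 UMIs).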

How the data were processed

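The RNA library and the tag library of 1 animal were analyzed. The authors deposited one matrix of UMI counts without normalization, for genes and tags in each barcode. The submitters' processing notes name Cell Ranger 3.1.0, STAR 2.5.1b and Mmul_10, and the kit read the 5′ end of transcripts. No annotation release was given in the sources used. The study's filters were applied (200 to 4000 genes, at most 20% mitochondrial UMIs), which left 7601 of 7923 barcodes. Of 32297887 gene UMIs in all, a CD3E+ cell had a median of 3656 UMIs (quartiles 3001 and 4720), and no doublet caller was run. Depth, gate, tag, doublet and pseudocount choices were varied, and some alternatives were chosen after seeing the data. Members and gene lists were chosen with earlier results of these data known. Shares have exact binomial intervals, levels Poisson intervals and ratios binomial splits, at 95%. A gene at 0 was given a floor of 3 UMIs over its set of cells. The share that a 0 allows was taken likewise, as 3 cells over the set. Both lie below the upper bound of the exact interval. Named genes are the members, 6 gates, listed genes and, for each member, the 12 highest and 6 lowest ratios, among genes with at least 20 UMIs (10 for IL21) in at least 5 cells of the higher group. Code was tested on simulated data. Python 3.11.15 with numpy 2.4.6, scipy 1.17.1 and matplotlib 3.10.9 was used. The sequence of IL21 is not reported here.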

Additional observations from a re-analysis of the deposited data

How the results depend on the processing

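Over 20 results and 151 alternative values, 122 stayed within the main 95% interval or within 1.5 times the main count. The IL21 intervals were wide (-0.84 to 3.41 for CXCR5), so for IL21 ratios staying within them shows little. Its ratio for PDCD1 went from 1.37 to 0.31 with thinning and still counted as within. IL21 by FOXP3 and by the CD4 tag gave no ratio and is not among these results. With 1 sample and a median of 3656 UMIs per cell, shares depend on depth. The share of CXCL13+ cells was 0.707% after thinning to 2000 UMIs and 0.643% at 2 or more UMIs, and that of IL21+ cells 0.115% and 0. With the gate at 2 or more UMIs, CXCL13 log2 ratios were -2.35 for CXCR5, 0.27 for CCR7 and -0.15 for CTLA4, which turned its direction. These intervals span 0, the CXCR5 gate held 1 CXCL13 UMI, and few CXCL13+ cells passed the CTLA4 gate. Without the top cell the ratios were 2.32 for PDCD1, 1.69 for CCR7 and -0.39 for the CD8 tag. By shares of cells they were 1.89 for CXCR5 and 1.69 for CCR7. Without cells with a B gene UMI the ratio for CXCR5 was 1.24 (0.55 to 1.86). For GZMB the ratio was -3.63 thinned and -3.41 as a mean over cells. With the median of all cells as limit, the CD4 tag gave 1.13 (0.73 to 1.55), against 3.66 (1.17 to 8.96). The latter rests on 1 CXCL13 UMI in the 449 cells at or below the main limit. The cause of these shifts was not tested. Against 109 higher and 212 lower genes for CXCL13, pseudocounts of 1 and 50 gave 232 and 568, and 34 and 37, a minimum of 2 UMIs 180 and 362, leaving out the 5% deepest cells 168 and 334, and a floor of 2 CPM 176 higher. Against 386 and 823 for IL21, pseudocount 1 gave 695 higher, pseudocount 50 gave 47 and 28, and the lower floor 612 higher. No cell held 2 IL21 UMIs, so that alternative had no value for its genes. No paired analysis was possible because the RNA and tag libraries hold the same cells of 1 animal and the design has no groups to compare.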
